A study of Homo sapiens with 9 samples.

Results

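KO C22 is a clone of the human pancreatic cancer cell line PANC-1 made by editing KDM6A with CRISPR/Cas9, and it was compared here with WT, the control PANC-1 line of the same study, across all genes and along the chromosomes. The members were chosen by genotype label: 2 Bru-seq libraries and 1 BruUV-seq library of KO C22 and the same number of WT, 6 of the 9 libraries of the series. The other 3 belong to a second knockout clone, KO C28, whose values are set beside those of KO C22 in places and share the WT libraries with them. All cells were grown in the same medium, labelled with 2 mM bromouridine for 30 min and collected with a chase of 0 h, and the BruUV-seq cells also received 100 J/m2 of UV light. KO C22 is a single clone, so a difference from WT can belong to the edit or to the clone, and the 2 cannot be told apart with these 6 libraries. The labels do not say whether replicates came from separate cultures, so p-values measure the spread between these libraries, which may be technical.

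Bru-seq captures RNA made during the labelling period and so reads transcription over the whole gene body, introns included. In BruUV-seq the UV lesions stop polymerases on their way, which raises the share of reads near gene starts. KDM6A, also called UTX, is an X-linked histone demethylase that removes the repressive methyl mark set by Polycomb complexes at histone H3 and works within a COMPASS-like complex at enhancers. Loss of KDM6A in pancreatic tumours is known from the squamous or quasi-mesenchymal kind, in which epithelial identity is reduced.

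The tables held 22.4 M and 25.7 M estimated reads in genes (M for mega) for Bru-seq WT, 18.3 M and 31.1 M for Bru-seq KO C22, and 22.2 M and 14.4 M for BruUV-seq WT and KO C22. Reads outside genes made up 9.93% to 20.01% of a library. The highest share was in Bru-seq KO C22 replicate 1, against 10.81% in its replicate 2 and 13.56% and 13.98% in Bru-seq WT. Levels across genes correlated at 0.822 to 0.944 (Pearson's r of log2 CPM, counts scaled to library size) among the 6 libraries. The highest value, 0.944, was between Bru-seq replicate 2 of WT and of KO C22, and replicate 1 of the 2 lines gave 0.929. Replicates of the same line were less alike in Bru-seq, with 0.921 for WT and 0.883 for KO C22. PANC-1 lacks CDKN2A, and CDKN2A had 0 reads in all 6. Of 8 ductal and PANC-1 markers, VIM, SOX9, KRT8, KRT18 and KRT19 carried 456 reads or more in every library. Scaled to the reads in genes, the summed markers of fibroblasts lay between 2.00 and 7.27 CPM in 5 libraries and at 35.6 CPM in BruUV-seq KO C22, of which COL1A1 supplied 493 of 512 reads. Summed immune markers lay between 0.445 and 6.62 CPM and summed endothelial markers between 1.53 and 5.25 CPM. Fewer cells of a type and less RNA per cell cannot be told apart in such samples.

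KDM6A itself was transcribed in KO C22, at values that overlapped those of WT. It had 297 and 261 CPM in WT against 265 and 381 CPM in KO C22 by Bru-seq, and 189 against 122 CPM by BruUV-seq. KO C22 was higher or between the WT values in Bru-seq and lower in BruUV-seq, and the fitted difference was -0.07 ± 0.31 (SE, adjusted p = 0.97). KDM6A lies on chromosome X, 44873177 to 45112602, plus strand (positions here are those of the deposited tables, build hg38/GRCh38). Nascent reads over a gene body do not show whether a small edit disabled the protein, so this value does not check the genotype. KDM6B, the related demethylase on chromosome 17, had 3.80 and 28.9 CPM in WT against 2.10 and 8.39 CPM in KO C22 by Bru-seq, and 28.4 against 23.2 CPM by BruUV-seq, a difference of -1.19 ± 0.78 (SE, adjusted p = 0.716) that did not pass and was 0.13 without Bru-seq WT replicate 2.

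In all, 85 of 21285 genes passed edgeR's quasi-likelihood test at a Benjamini-Hochberg adjusted p of 0.05, 0.399% of those tested, with 55 higher (0.258%) and 30 lower (0.141%) in KO C22. In every one of the 85 genes the KO C22 and WT libraries did not overlap in either assay, a property that 2151 genes (10.1%) showed in the higher and 2679 (12.6%) in the lower direction. The calls were made on these same libraries, so this is no further support for them. With 1 BruUV-seq library per line, no overlap in that assay means only a difference in the same direction. The smallest changes that passed were a log2 fold change of 1.91 upward and -1.96 downward. The number of genes that passed changed with the libraries in the fit, and was 4 when either BruUV-seq library was left out. In those fits the other BruUV-seq library stood alone in its assay and gave no difference between lines. Those counts therefore do not show how far the calls rest on BruUV-seq. Leaving out replicate 2 of Bru-seq gave 11 genes for WT and 15 for KO C22. Leaving out replicate 1 gave 105 and 174. With the Bru-seq libraries alone 1 of 20344 genes passed, and with all 9 libraries in the fit 37 passed. Correcting each library for a trend of level on gene length gave 64 genes, 35 higher and 29 lower.

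**Figure D1:**
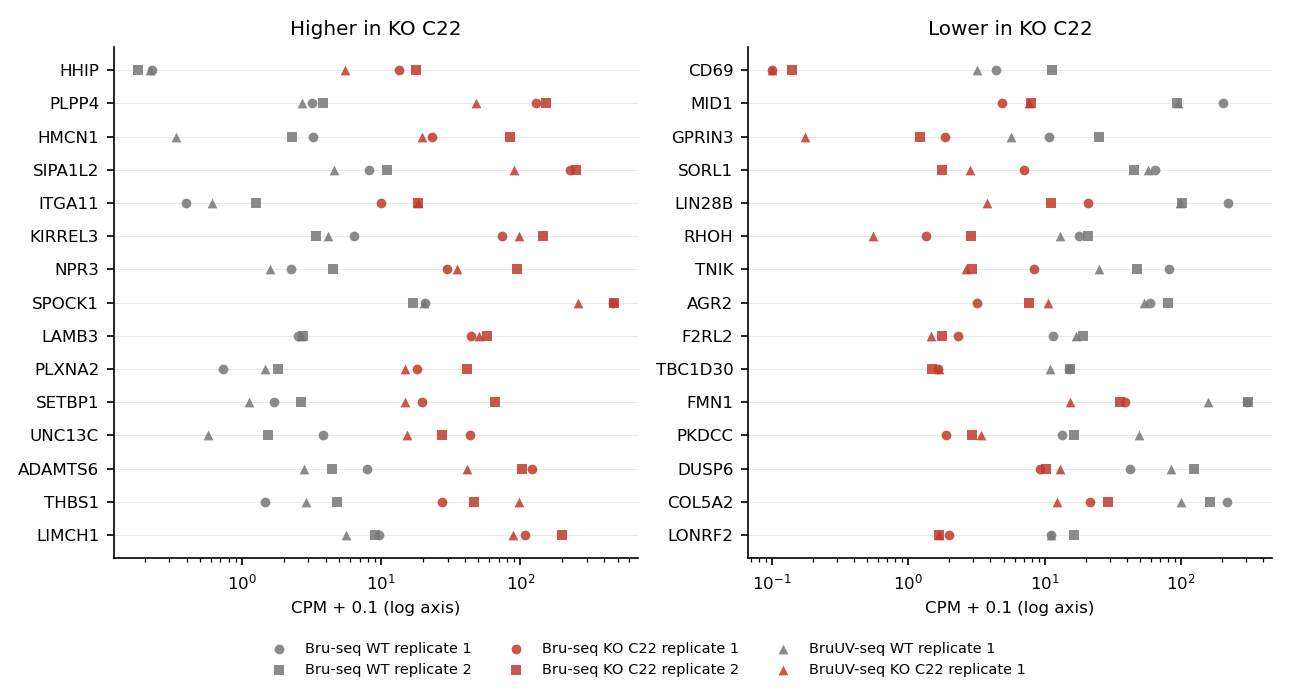
Levels of the 15 named genes with the largest rises (left) and the 15 with the largest falls (right), in CPM plus 0.1 on a log axis, with 1 point per library (grey WT, red KO C22, triangles BruUV-seq). In each gene the red and grey points of an assay do not overlap, which the choice of these genes required.

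HHIP, a membrane protein that binds and holds back hedgehog ligands, showed the largest rise. Its level was 0.127 and 0.0777 CPM in the Bru-seq libraries of WT, 13.2 and 17.8 CPM in those of KO C22, and 0.118 and 5.43 CPM in the BruUV-seq libraries of WT and KO C22. WT held 8 reads of it over 3 libraries, and all 3 KO C22 libraries stood far above them (log2 fold change 6.62 ± 0.66 (SE), adjusted p = 0.00884). HHIP lies on chromosome 4, 144646021 to 144745271, plus strand. Its 7 tested neighbours within 1 Mb had a median log2 fold change of -0.05. Of 15 measured hedgehog genes HHIP alone passed. Among the members that did not pass, the values were 1.98 ± 0.38 (SE, adjusted p = 0.0926) for HHAT, which acylates hedgehog proteins, and -2.67 ± 1.53 (SE, adjusted p = 0.678) for GLI1, a hedgehog-responsive transcription factor.

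Several genes for proteins of the extracellular matrix rose in KO C22. SPOCK1, a testican proteoglycan, had 20.7 and 16.7 CPM in the Bru-seq libraries of WT, 463 and 471 CPM in those of KO C22, and 20.1 and 258 CPM in the BruUV-seq libraries of WT and KO C22. All 3 KO C22 libraries were far above WT (log2 fold change 4.33 ± 0.35 (SE), adjusted p = 0.00425). LAMB3, a laminin chain of epithelial basement membranes, had 2.41 and 2.64 CPM in WT against 43.8 and 57.7 CPM in KO C22 by Bru-seq, and 2.55 against 50.6 CPM by BruUV-seq (log2 fold change 4.32 ± 0.34 (SE), adjusted p = 0.00425). The LAMB3 libraries of a line differed little from each other and the lines did not overlap, which the choice of the largest rises required. HMCN1, a large extracellular hemicentin, had 3.13 and 2.18 CPM in WT against 23.1 and 84.1 CPM in KO C22 by Bru-seq, and 0.235 against 19.4 CPM by BruUV-seq, and rose by 4.86 ± 0.67 (SE, adjusted p = 0.0269) on the log2 scale. THBS1, the matricellular thrombospondin, had 1.35 and 4.74 CPM in WT against 27.4 and 46.4 CPM in KO C22 by Bru-seq, and 2.78 against 97.8 CPM by BruUV-seq and a rise of 4.10 ± 0.60 (SE, adjusted p = 0.0332). WT replicate 2 was above replicate 1 for THBS1, yet both were below each KO C22 library. FBN1 (fibrillin, a microfibril component) rose by 3.02 ± 0.31 (SE, adjusted p = 0.00911) and EFEMP1 (a fibulin) by 2.98 ± 0.42 (SE, adjusted p = 0.0294). COL5A2, a fibril-forming collagen chain, went the other way and had 217 and 162 CPM in WT against 21.3 and 28.7 CPM in KO C22 by Bru-seq, and 98.9 against 12.2 CPM by BruUV-seq, and fell (log2 fold change -2.95 ± 0.30 (SE), adjusted p = 0.00884).

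Counted over the whole interstitial matrix list, 18 of 27 measured members had a fitted log2 fold change above 0, with a median of 1.22 and medians of 0.81, 0.65 and 1.15 in the individual KO C22 libraries. Over this list WT replicate 2 exceeded WT replicate 1 by a median of 0.65. SPOCK1, FBN1, EFEMP1 and THBS1 passed upward and COL5A2 downward, against 55 higher and 30 lower of all 21285 genes, whose median was -0.00. In basement membrane genes, 19 of 26 measured members had a fitted log2 fold change above 0, with a median of 0.78 and medians of 0.45, 0.56 and 0.90 in the individual KO C22 libraries. Here WT replicate 2 exceeded WT replicate 1 by a median of 0.40. LAMB3 and HMCN1 passed, and COL7A1, the anchoring-fibril collagen, had 3.46 and 5.40 CPM in WT against 13.4 and 52.9 CPM in KO C22 by Bru-seq, and 12.5 against 244 CPM by BruUV-seq without passing (3.37 ± 0.58 SE, adjusted p = 0.0669). Of the integrin and focal adhesion genes, 22 of 30 measured members had a fitted log2 fold change above 0, with a median of 0.39 and medians of -0.04, 0.31 and 0.79 in the individual KO C22 libraries. The WT replicates differed by a median of 0.41 over this list. TLN2, a talin that links integrins to actin, rose (2.81 ± 0.31 SE, adjusted p = 0.0107), as did ITGA11, a collagen-binding integrin chain, with 0.296 and 1.17 CPM in WT against 9.90 and 18.3 CPM in KO C22 by Bru-seq, and 0.509 against 18.2 CPM by BruUV-seq (4.54 ± 0.65 SE, adjusted p = 0.032). WT held few ITGA11 reads in all 3 libraries.

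Of the mesenchymal and EMT genes 3 rose and 0 fell, and of the epithelial genes 1 fell and 0 rose, beside 0.258% higher and 0.141% lower of all genes tested. The lists were set with earlier results of these data known, so no list was tested against that share. In the mesenchymal and EMT list, 19 of 27 measured members had a fitted log2 fold change above 0, with a median of 0.57 and medians of 0.51, 0.61 and 0.98 in the individual KO C22 libraries. WT replicate 2 lay above WT replicate 1 by a median of 0.31 over this list. TCF4, a class I basic helix-loop-helix factor, had 29.9 and 26.2 CPM in WT against 186 and 418 CPM in KO C22 by Bru-seq, and 11.3 against 89.9 CPM by BruUV-seq and rose (3.28 ± 0.38 SE, adjusted p = 0.015), BICC1, an RNA-binding protein, rose by 3.69 ± 0.57 (SE, adjusted p = 0.0412), and CDH2 (N-cadherin) had 26.8 and 21.02 CPM in WT against 97.6 and 125 CPM in KO C22 by Bru-seq, and 25.8 against 72.4 CPM by BruUV-seq (1.98 ± 0.31 SE, adjusted p = 0.0454). TNC, a matrix glycoprotein of remodelling tissue, gave 4.55 ± 0.81 (SE, adjusted p = 0.0692) and did not pass. In the epithelial list, 7 of 35 measured members had a fitted log2 fold change above 0, with a median of -0.60 and medians of -1.003, -0.51 and -0.79 in the individual KO C22 libraries. The median was -0.94 without Bru-seq KO C22 replicate 2, and the WT replicates differed by 0.61. MPDZ, a scaffold of tight junctions, passed downward with 71.1 and 77.02 CPM in WT against 10.5 and 18.1 CPM in KO C22 by Bru-seq, and 35.3 against 8.37 CPM by BruUV-seq (-2.27 ± 0.33 SE, adjusted p = 0.0332). CDH1 (E-cadherin) had 4.99 and 10.997 CPM in WT against 1.25 and 1.19 CPM in KO C22 by Bru-seq, and 23.04 against 0.829 CPM by BruUV-seq, and its value of -3.35 ± 0.63 (SE, adjusted p = 0.0877) did not pass. DSC2 (desmocollin) gave -3.15 ± 0.60 (SE, adjusted p = 0.0892) and EPCAM gave -2.29 ± 0.47 (SE, adjusted p = 0.115). CDH6 gave 3.50 ± 0.59 (SE, adjusted p = 0.0597), and in the cadherin list 14 of 17 measured members were above 0, but its median was 2.34 and 0.06 in the Bru-seq libraries of KO C22 and 0.22 without replicate 1. AGR2, a secretory-pathway disulfide isomerase of mucous epithelium, had 59.3 and 80.1 CPM in WT against 3.10 and 7.56 CPM in KO C22 by Bru-seq, and 53.6 against 10.4 CPM by BruUV-seq and fell (-3.26 ± 0.48 SE, adjusted p = 0.0333).

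**Figure D2:**
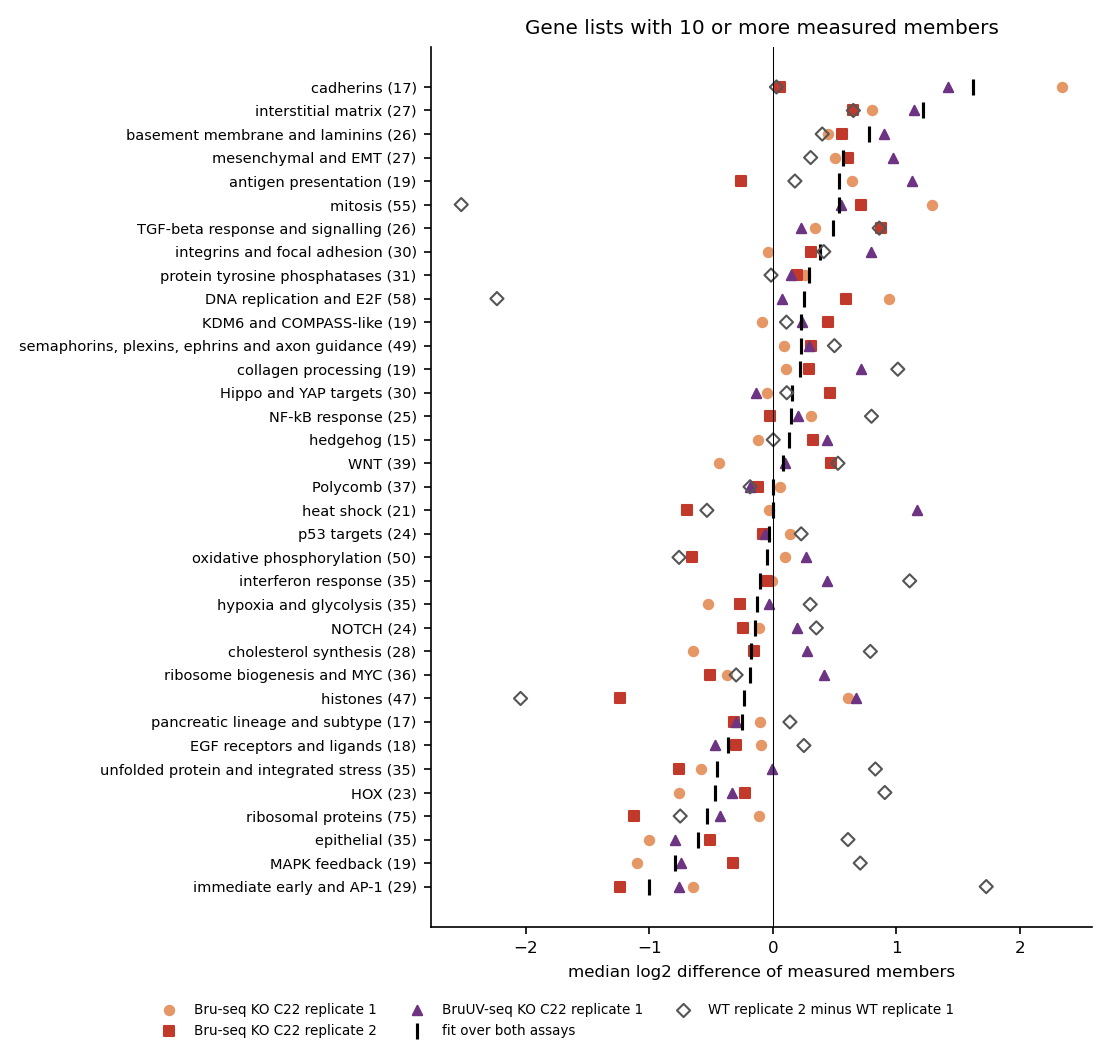
Median log2 difference over the measured members of each list with 10 or more of them, for each KO C22 library against WT of the same assay (coloured points), for the fit over both assays (black ticks) and for WT replicate 2 minus WT replicate 1 (open diamonds). Interstitial matrix members had a median of 1.22 and immediate early genes of -1.001, and in 23 of the 35 lists shown, those of immediate early, epithelial and mitosis genes included, the WT replicates were further apart than the fitted median is from 0.

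Among genes for guidance and growth signals, the guidance list had 3 members that rose, the TGF-beta list 1 that rose and the NOTCH, phosphatase and Src-family lists 1 each that fell, beside 0.258% higher and 0.141% lower of all genes tested. PLXNA2, a semaphorin receptor, had 0.634 and 1.71 CPM in WT against 17.9 and 41.4 CPM in KO C22 by Bru-seq, and 1.37 against 14.8 CPM by BruUV-seq and rose (4.25 ± 0.60 SE, adjusted p = 0.0312). NTN1 (netrin) rose by 2.58 ± 0.38 (SE, adjusted p = 0.0333) and NRP2, a semaphorin co-receptor, by 2.55 ± 0.41 (SE, adjusted p = 0.0499), and in the guidance list 33 of 49 members were above 0 with a median of 0.23. Over the guidance list WT replicate 2 exceeded WT replicate 1 by a median of 0.50. BMPR1B, a type I receptor of bone morphogenetic proteins, had 16.9 and 6.92 CPM in WT against 107 and 188 CPM in KO C22 by Bru-seq, and 4.70 against 52.9 CPM by BruUV-seq and rose (3.58 ± 0.43 SE, adjusted p = 0.0173). In the list of TGF-beta genes, 22 of 26 measured members had a fitted log2 fold change above 0, with a median of 0.49 and medians of 0.34, 0.88 and 0.23 in the individual KO C22 libraries. The WT replicates were further apart than this, with replicate 2 above replicate 1 by a median of 0.86. MAML2, a co-activator of NOTCH signalling, had 147 and 137 CPM in WT against 23.7 and 26.4 CPM in KO C22 by Bru-seq, and 68.6 against 13.6 CPM by BruUV-seq and fell (-2.45 ± 0.27 SE, adjusted p = 0.0122), while the NOTCH ligand gene JAG1 gave 2.07 ± 0.39 (SE, adjusted p = 0.0841) and did not pass. LYN, a Src-family kinase, had 51.002 and 35.3 CPM in WT against 8.45 and 5.11 CPM in KO C22 by Bru-seq, and 36.8 against 5.35 CPM by BruUV-seq and fell (-2.71 ± 0.36 SE, adjusted p = 0.0243), and PTPN13, a large protein tyrosine phosphatase, had 108 and 125 CPM in WT against 15.05 and 15.6 CPM in KO C22 by Bru-seq, and 53.5 against 8.74 CPM by BruUV-seq and fell (-2.82 ± 0.29 SE, adjusted p = 0.00884). LYN and PTPN13 separated the lines in both assays, as did all 85 genes that passed.

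Other named genes fell or rose, among them the largest falls. CD69, a lectin-like surface protein of activated lymphocytes, had 101 and 288 reads in Bru-seq WT and 79 in BruUV-seq WT, against 0, 1 and 0 reads in KO C22. The depth-adjusted ratio of WT to KO C22 was 366, with an exact 95% interval of 65.3 to 14470 that covers counting error only. AFAP1-AS1, a long noncoding RNA on chromosome 4, 7754090 to 7778928, plus strand that overlaps AFAP1 on the other strand, had 1158 and 1602 reads in Bru-seq WT and 2464 in BruUV-seq WT, against 2, 1 and 0 in KO C22. Its ratio was 1360 (465 to 6598), and the fit gave -10.16 ± 0.62 (SE, adjusted p = 0.00204). AFAP1 itself gave -0.43 ± 0.40 (SE, adjusted p = 0.806). LIN28B, an RNA-binding blocker of let-7 processing, had 220.2 and 101 CPM in WT against 20.5 and 11.01 CPM in KO C22 by Bru-seq, and 98.1 against 3.69 CPM by BruUV-seq and fell (-3.78 ± 0.49 SE, adjusted p = 0.0205). SORL1, a sorting receptor, had a log2 fold change of -3.90 ± 0.56 (SE, adjusted p = 0.032). SIPA1L2, a Rap GTPase-activating protein, had 8.03 and 10.96 CPM in WT against 227 and 253 CPM in KO C22 by Bru-seq, and 4.51 against 90.6 CPM by BruUV-seq and rose (4.55 ± 0.32 SE, adjusted p = 0.00311). PLPP4, a lipid phosphatase, had 3.08 and 3.73 CPM in WT against 129 and 153 CPM in KO C22 by Bru-seq, and 2.59 against 47.7 CPM by BruUV-seq and rose (4.99 ± 0.39 SE, adjusted p = 0.00425). The remaining named rises were KIRREL3, NPR3, SETBP1, UNC13C, ADAMTS6 and LIMCH1, with log2 fold changes of 4.04 to 4.54. The remaining named falls were GPRIN3, RHOH, TNIK, F2RL2, TBC1D30, FMN1, PKDCC and LONRF2, from -4.11 to -2.90.

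Further lists had members with large fitted differences that did not pass, so their values are given without a direction call. Of all genes tested 0.399% passed, so the lack of a call says little about a short list. Among WNT genes, of which 0 of 39 passed, WNT7A gave 3.05 ± 0.77 (SE, adjusted p = 0.216) and WNT5A, a ligand of the non-canonical branch, gave 2.38 ± 0.62 (SE, adjusted p = 0.232). INHBA, the activin A subunit, had 1.90 and 13.1 CPM in WT against 27.4 and 26.6 CPM in KO C22 by Bru-seq, and 1.72 against 18.8 CPM by BruUV-seq (2.35 ± 0.70 SE, adjusted p = 0.305). PMEPA1, a feedback inhibitor of TGF-beta signalling, had 98.9 and 246 CPM in WT against 465 and 906 CPM in KO C22 by Bru-seq, and 166 against 559.7 CPM by BruUV-seq (1.91 ± 0.43 SE, adjusted p = 0.158). In the list of Hippo and YAP targets, with 0 of 30 passing, TGFB2 gave 1.51 ± 0.55 (SE, adjusted p = 0.431) and F3, the tissue factor that starts coagulation, gave -1.59 ± 0.49 (SE, adjusted p = 0.328). Among collagen-processing enzymes, with 0 of 19 passing, PLOD2, a lysyl hydroxylase, gave -1.79 ± 0.37 (SE, adjusted p = 0.122) and LOXL2, a lysyl oxidase, gave 1.21 ± 0.31 (SE, adjusted p = 0.226).

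Immediate early genes, which respond within minutes to growth factor and stress signals, lay lower in KO C22 without passing. Of 29 measured members 1 was above 0 (median -1.001, with -0.65, -1.24 and -0.76 in the KO C22 libraries). By edgeR 10 had an unadjusted p below 0.05, all lower, and 0 passed. Of all 21285 genes 962 were lower at that level and 0.399% passed. FOS had 20.3 and 65.4 CPM in the Bru-seq libraries of WT, 0.450 and 1.11 CPM in those of KO C22, and 92.1 and 12.4 CPM in the BruUV-seq libraries of WT and KO C22 (-4.76 ± 0.80 SE, adjusted p = 0.0597). FOSB had 19.1 and 236 CPM in WT against 0.150 and 3.33 CPM in KO C22 by Bru-seq, and 86.1 against 9.20 CPM by BruUV-seq (-5.22 ± 1.31 SE, adjusted p = 0.214). Every KO C22 library was below its WT counterparts for both, but the WT libraries were themselves far apart. EGR1 gave -3.44 ± 0.78 (SE, adjusted p = 0.158) and EGR2 -5.59 ± 1.60 (SE, adjusted p = 0.285). WT replicate 2 exceeded WT replicate 1 by a median of 1.73 over these genes, and without WT replicate 2 the list median was -0.34. Among the MAPK feedback genes 5 of 19 were above 0 (median -0.79, and -0.23 without WT replicate 2). DUSP6, a phosphatase that ends ERK activity, passed downward with 41.7 and 124 CPM in WT against 9.10 and 10.1 CPM in KO C22 by Bru-seq, and 83.4 against 12.9 CPM by BruUV-seq (-2.97 ± 0.44 SE, adjusted p = 0.0358). SPRY1, an ERK pathway inhibitor, gave -2.08 ± 0.54 (SE, adjusted p = 0.226) and DUSP1 -1.51 ± 0.37 (SE, adjusted p = 0.21), and DUSP10, a phosphatase for the stress kinases, gave the opposite value of 2.91 ± 0.59 (SE, adjusted p = 0.112). Among EGF-like ligands TGFA fell (-1.96 ± 0.31 SE, adjusted p = 0.0484), and EREG with -2.39 ± 0.43 (SE, adjusted p = 0.0711), AREG with -3.77 ± 0.83 (SE, adjusted p = 0.146) and HBEGF with 1.47 ± 0.50 (SE, adjusted p = 0.386) did not pass. The part of the spread between the WT replicates in these values was not tested.

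**Figure D3:**
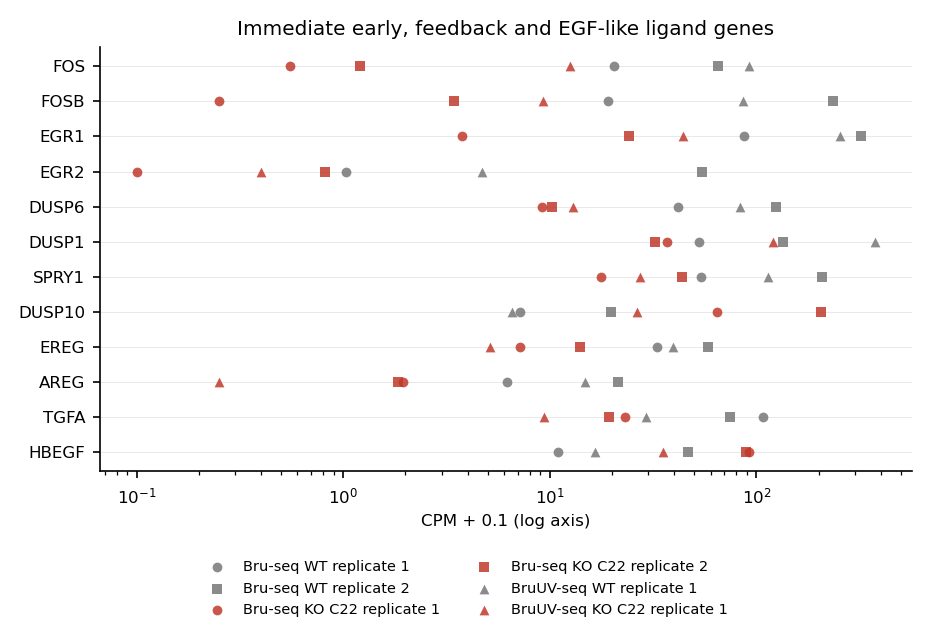
CPM plus 0.1 on a log axis for 12 immediate early, feedback and EGF-like ligand genes, 1 point per library (grey WT, red KO C22, triangles BruUV-seq). FOSB in WT ranged from 19.1 to 236 CPM between the Bru-seq replicates, and DUSP6 in KO C22 stayed between 9.10 and 12.9 CPM.

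Immediate early genes had the lowest median of the lists above, and the CArG box, the site of serum response factor, is a known control element of this class. The starts of EGR1 and EGR2 are shown as examples that hold this box, and the EGR2 start was taken for its box. They do not stand for the whole list, and the same stretch before the start of FOS held 0 boxes. The 130 bases before the start are given from RefSeq (GRCh38.p14) in the direction of transcription, with CArG boxes in capitals. This length was chosen to take in the boxes found in the 250 bases that were searched.
EGR1 (chr5:138465349-138465478, plus strand): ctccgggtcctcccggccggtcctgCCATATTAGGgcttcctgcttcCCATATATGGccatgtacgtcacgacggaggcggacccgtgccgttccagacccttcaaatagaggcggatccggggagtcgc
EGR2 (chr10:62816367-62816496, minus strand, 1 of its starts): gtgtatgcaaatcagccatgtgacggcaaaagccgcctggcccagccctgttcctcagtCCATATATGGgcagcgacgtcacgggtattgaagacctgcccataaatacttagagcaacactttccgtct
EGR1 has boxes that begin 105 and 83 bases before the start, and EGR2 has 1 that begins 71 bases before it. Of 22 immediate early genes found in the table, 3 (13.6%) held a CArG box, against 1.44% of 27305 genes. The AP-1 site TGANTCA was in 0 of 22 and in 8.06% of all, and the CRE TGACGTCA in 2 (JUND and MAFF, 9.09%) and in 2.03%, both strands being covered because these motifs read alike on each. A match is a description of letters in this window.

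Chemokine ligands of CXCR2, which attract neutrophils and are named in the title of the study, gave no gene that passed. Of 7 listed genes 3 were measured, too few for the lack of a call to say much beside 0.399% of all genes tested. CXCL1 had 4.77 and 2.14 CPM in the Bru-seq libraries of WT, 32.7 and 3.44 CPM in those of KO C22, and 3.80 and 9.95 CPM in the BruUV-seq libraries of WT and KO C22 (2.06 ± 0.78 SE, adjusted p = 0.459). Replicate 1 of KO C22 was high, while replicate 2 lay between the 2 WT values. CXCL2 gave 2.87 ± 0.88 (SE, adjusted p = 0.328) and CXCL8 1.27 ± 0.79 (SE, adjusted p = 0.699).

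Growth and housekeeping programmes had no member that passed, beside 0.399% of all genes tested. At so low a share, the lack of a call says little about a list of this size. Mitosis genes were above 0 in 51 of 55 members with a median of 0.54, but WT replicate 2 lay below WT replicate 1 by a median of 2.52, and the median was 0.11 without WT replicate 2 and 1.51 without WT replicate 1. Replication genes gave 44 of 58 above 0 and a WT difference of -2.23. MKI67 had 346 and 57.1 CPM in WT against 298 and 444 CPM in KO C22 by Bru-seq, and 393 against 1710.0 CPM by BruUV-seq, with the lowest value in WT replicate 2. Of 75 ribosomal protein genes 7 were above 0 (median -0.53; -0.11, -1.12 and -0.43 in the KO C22 libraries). The unfolded protein and stress list had 9 of 35 above 0 (median -0.45), led by DDIT3 with -2.71 ± 0.56 (SE, adjusted p = 0.115), and the HOX list had 4 of 23 (median -0.47). WT replicate 2 minus WT replicate 1 had a larger median in each of these lists. It was -0.75 for ribosomal protein, 0.83 for stress and 0.91 for HOX genes. In the Polycomb list 18 of 37 were above 0 with a median of -0.00, and in the KDM6 and COMPASS-like list 14 of 19 with a median of 0.23. GJA1, a gap junction connexin, gave -3.75 ± 0.64 (SE, adjusted p = 0.065).

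Along the chromosomes, 3 of 23 (13%) were lower in KO C22 and 0 higher, tested with limma on the median over each chromosome's genes. Chromosome X had a log2 difference of -0.42, -0.53 and -0.19 in the KO C22 libraries (estimate -0.38 ± 0.07 SE, adjusted p = 0.000787). Chromosome 10 had -0.32, -0.29 and -0.31 (-0.31 ± 0.07, adjusted p = 0.00147) and chromosome 17 had -0.35, -0.36 and -0.20 (-0.30 ± 0.07, adjusted p = 0.00259). In each case the KO C22 libraries lay below WT in both assays. Of their genes 64.7%, 67.3% and 69.0% were below 0. The median weighs each gene alike: with reads summed over a chromosome the values were -0.08, -0.08 and -0.10 and 0 of 23 passed. Without either BruUV-seq library chromosome X alone passed, without the filter on low counts chromosome 17 alone, and with all 9 libraries chromosome 10 alone. KO C28 had -0.00, 0.11 and -0.11 on chromosome X, -0.12, -0.72 and -0.14 on chromosome 10, and -0.09, -0.16 and 0.07 on chromosome 17. KO C22 minus KO C28 was -0.38 on chromosome X (adjusted p = 0.0379 by limma over the 9 libraries), 0.03 on chromosome 10 (0.839) and -0.22 on chromosome 17 (0.293), and without Bru-seq KO C28 replicate 2, the shallowest library, -0.36 (0.00606), -0.19 (0.0264) and -0.27 (0.00886). Chromosome 5 had 0.27, 0.07 and 0.15 (0.16 ± 0.07, adjusted p = 0.132) and passed in 4 alternatives, those with DESeq2 size factors, the gene length correction, a mean of at least 100 reads and the replicate block. The contrast with KO C28 was added after the chromosome values were seen.

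**Figure D4:**
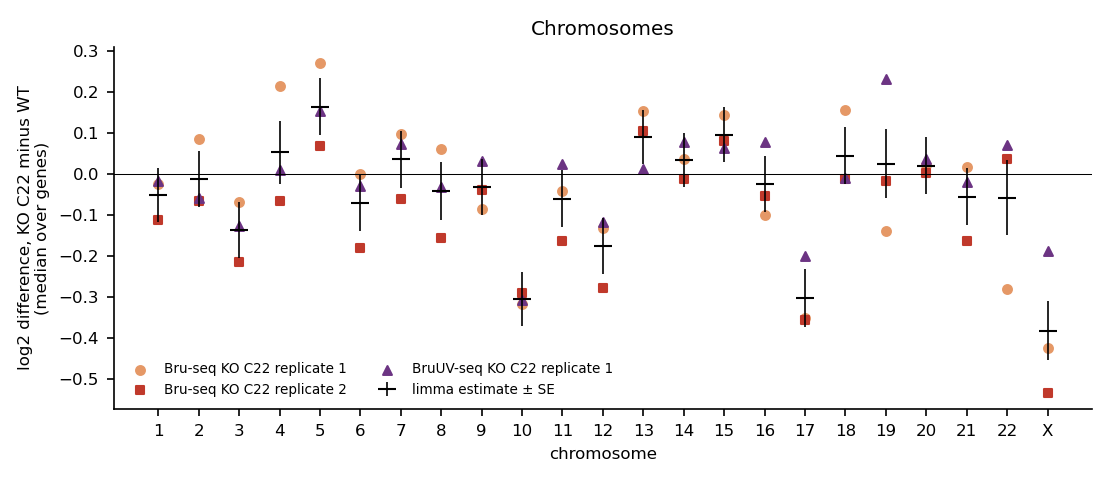
Log2 difference of KO C22 minus WT for each chromosome, as the median over its genes, for the 3 KO C22 libraries (coloured points) and the limma estimate with its SE (black). Chromosomes X, 10 and 17 lie at -0.38, -0.31 and -0.30.

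The window from 10 to 20 Mb of chromosome X alone passed among 300 windows of 10 Mb (0.333%), with -0.93, -0.96 and -0.81 in the KO C22 libraries (estimate -0.90 ± 0.10 SE, adjusted p = 0.0133 by limma). In that window 41 of 47 genes were below 0, and without its gene that passed the estimate was -0.87 (adjusted p = 0.0212). That gene was MID1, a ubiquitin ligase of microtubules on chromosome X, 10445310 to 10833654, minus strand, which had 201 and 92.9 CPM in WT against 4.75 and 7.76 CPM in KO C22 by Bru-seq, and 93.8 against 7.54 CPM by BruUV-seq (-4.25 ± 0.45 SE, adjusted p = 0.00911). The 4 most abundant other genes of the window were SH3KBP1 with -0.33, WWC3 with -0.78, SCML2 with -1.11 and TMSB4X with -1.30, none of which passed. The window did not pass with the Bru-seq libraries alone (-0.96, adjusted p = 0.170), with all 9 libraries (-0.87, 0.0537) or without either BruUV-seq library. The window before it had an estimate of -0.60, the next ones after it -0.75 and -0.72, and the window with KDM6A -0.22. In windows of 20 Mb, chromosome X passed by limma from 0 to 20 Mb (-0.89, adjusted p = 0.00264) and from 20 to 40 Mb (-0.73, adjusted p = 0.00574).

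Split at KDM6A after these windows were seen, and so given without a test, 93 of 118 genes before it were below 0 (median -0.84; -0.73, -0.87 and -0.66 in the KO C22 libraries, and -0.09, -0.26 and -0.19 in those of KO C28). After it 305 of 498 were below 0 (median -0.20; -0.30, -0.47 and 0.01). The segment was not uniform. Of genes near KDM6A with a mean of 500 reads or more, chosen after their values were seen, KLHL15 had -1.58, EIF2S3 -1.06 and BCOR, a Polycomb subunit, -1.12, but ZFX had -0.14 and IL1RAPL1 -0.07. Next to KDM6A, CASK had -0.23 and KRBOX4 -0.64. None of these passed.

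**Figure D5:**
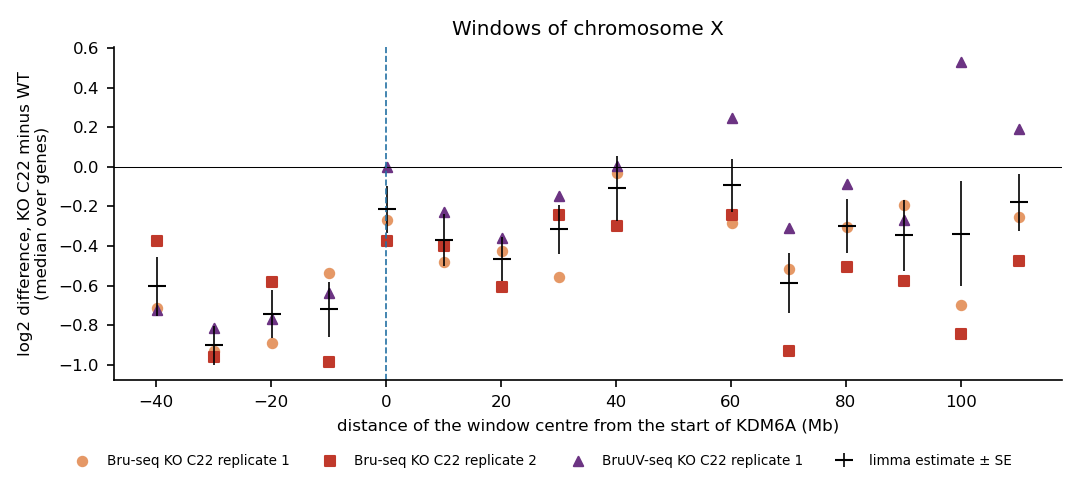
Log2 difference of KO C22 minus WT in 10 Mb windows of chromosome X, plotted against the distance of the window centre from the start of KDM6A (dashed line), for the 3 KO C22 libraries (coloured points) and the limma estimate with its SE (black). The 4 windows before that of KDM6A have estimates of -0.60 to -0.90.

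On chromosome 17 the window from 0 to 10 Mb lay above 0 (0.22) and the other 8 between -0.46 and -0.27, and on chromosome 10 13 of 14 windows lay below 0. None of those windows passed. The median of neighbours within 1 Mb was within 1 log2 unit of 0 for 30 of 31 genes, these being AFAP1-AS1 and the 15 largest rises and falls. The exception was LAMB3, whose 9 neighbours had a median of 2.18, 7 of them above 0 and 0 passing. Within 3 Mb of LAMB3 the median was 0.17, and 0 of 31 genes were beyond 1. Within 500 kb 5 of 31 were: LAMB3 (2.18), SETBP1 (2.12), UNC13C (1.31) and PLPP4 (1.01) above 0 and MID1 (-1.13) below. The 10 neighbours of MID1 had a median of -0.91.

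Whether the difference between lines differs between the assays could not be decided for single genes. The interaction of line and assay passed in 0 of 21285 genes (0%) by edgeR, with 311 at an unadjusted p below 0.05, and it rests on 1 BruUV-seq library per line. Those 311 are a smaller share than 0.05 of the genes, so the test was conservative. A count of 0 therefore does not show that the assays gave the same differences. The KO C28 libraries are set against the same WT libraries. For the 3 largest named rises and the 3 largest named falls, the log2 differences from WT are given in the order Bru-seq replicates 1 and 2 and BruUV-seq. Values of KO C22 come first. HHIP had 6.13, 6.55 and 4.73 against 4.87, 2.71 and 4.38 in KO C28, PLPP4 had 5.21, 5.46 and 4.16 against 2.67, 2.37 and 1.66, and HMCN1 had 3.10, 4.96 and 5.91 against 4.62, 5.10 and 7.37. CD69 had -6.28, -5.76 and -5.15 against -3.76, -2.41 and -4.98 in KO C28, MID1 had -4.82, -4.12 and -3.62 against -1.17, -2.67 and -1.90, and GPRIN3 had -3.15, -3.77 and -5.11 against -4.43, -1.98 and -5.81.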

How the data were processed

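Per the labels' protocols, bromouridine-labelled RNA was captured with an antibody, primed at random and made into libraries, with strand kept in certain samples only. Per the submitters' processing notes the tools named are CASAVA 1.8.2, Bowtie2 2.3.3, STAR 2.5.3a and bedtools 2.16.2 and the builds hg38 and GRCh38. The deposited tables, made by the authors, give an estimated count (expected count) and an RPKM per gene for 57733 genes. No source used here names the annotation release. The RPKM values deposited by the authors served only to find the share of reads outside genes.

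Estimated counts were rounded and fitted with edgeR 4.0.16 (R 4.3.3): filterByExpr, TMM, line and assay as terms, quasi-likelihood F tests, Benjamini-Hochberg at 0.05, common biological coefficient of variation 55.9%. CPM is edgeR's cpm on TMM library sizes over the 6 libraries, except for marker sums, which are scaled to the reads in genes, and log2 CPM has a prior count of 2. An SE is the log2 fold change over the root of F. Chromosomes and 10 Mb windows with at least 10 genes were tested with limma 3.58.1 on the median log2 CPM of their genes. DESeq2 1.42.0 and voom were alternatives. The tests were tried on simulated data. Intervals are exact binomial at 95% and cover counting error only, since without molecular identifiers PCR copies count as reads.

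Members, the 42 gene lists (1216 of 1217 symbols in the tables) and the choice of 6 libraries were set with earlier results of these data known. Named genes are KDM6A and AFAP1-AS1, the 15 largest rises and falls that passed with a mean of at least 100 reads in the higher line, libraries apart in both assays and under 50% of the body shared with a higher same-strand gene, up to 4 members per list by smallest p, and the called genes and 4 most abundant others of a window that passed. The rises and falls leave out clone names, pseudogenes, antisense and small RNAs. AFAP1, KLHL15, EIF2S3, ZFX, IL1RAPL1, CASK and KRBOX4 fall outside that rule and were chosen after their values were seen. Chosen after the data were seen were also the split of chromosome X, the contrast of KO C22 with KO C28, the printed promoter stretch and the tolerances for calling a list or neighbour median moved. 1 ductal marker is not reported here.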

Additional observations from a re-analysis of the deposited data

Results flagged for a closer look

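In 13 results both Bru-seq libraries of KO C22 moved one way against WT and the BruUV-seq library the other, and the difference between the assays was not tested for the lists and chromosomes. Medians in BruUV-seq and then in Bru-seq replicates 1 and 2 were 1.17, -0.03 and -0.69 for heat shock genes, 0.42, -0.37 and -0.51 for ribosome biogenesis and MYC genes, and 0.28, -0.65 and -0.15 for cholesterol synthesis genes. They were 0.44, -0.01 and -0.05 for interferon response genes and 0.20, -0.11 and -0.24 for NOTCH genes. PANC-1 and ductal markers gave 0.42, -0.10 and -0.71, and the 2 measured immune markers gave -0.48, 3.25 and 0.53.

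For chromosomes the values were 0.0243, -0.04 and -0.16 on chromosome 11, 0.0322, -0.09 and -0.04 on chromosome 9, 0.0789, -0.10 and -0.05 on chromosome 16, and 0.23, -0.14 and -0.02 on chromosome 19. For chromosome X after KDM6A they were 0.0108, -0.30 and -0.47. ZFX, on chromosome X, had -0.64, 0.05 and 0.33, and its interaction of line and assay did not pass in edgeR.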

How the results depend on the processing

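The count of 85 genes became 594 without a filter on low counts, 37 with all 9 libraries, 1 with the Bru-seq libraries alone, 53 with limma-voom, 685 with DESeq2 and 142 with all libraries but Bru-seq KO C28 replicate 2, an alternative added after seeing the data. Leaving out 1 library gave 4 to 174. All 85 passed without the filter and with DESeq2, and 35 of them with all 9 libraries. With the replicate number as a block 493 genes, 21 windows and 5 chromosomes passed; deviations of same-numbered Bru-seq libraries of WT and KO C22 correlated at 0.458 across genes, but with 2 pairs and no label for what a number shares they were not taken as paired. Interaction calls stayed at 0 under each of the 4 alternatives run. The count of 1 window became 8 with a mean of at least 100 reads, 0 with all 9 libraries, 0 with Bru-seq alone, 4 with the length offset, 0 for 5 Mb windows, 3 for 20 Mb windows, 11 with summed counts, and 0 to 2 with 1 library left out. The 3 chromosomes became 4 with DESeq2 size factors, 4 with the length offset, 1 without the filter, 7 with a mean of at least 100 reads, 1 with all 9 libraries, 1 with Bru-seq alone, 0 with summed counts, and 1 to 3 with 1 library left out. Some genes changed sign: with Bru-seq alone KDM6A was 0.28, IL1RAPL1 0.20 and ZFX 0.17, and with 1 library left out KDM6A ranged from -0.32 to 0.24, KDM6B from -1.72 to 0.13, IL1RAPL1 from -0.68 to 0.25 and ZFX from -0.45 to 0.13. The causes were not tested. Genes at a few reads per library, such as HHIP in WT, have an imprecise fold.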
